A study of Arabidopsis thaliana with 9 samples.

Results

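The response to low atmospheric pressure that was present at both oxygen levels was examined in roots cut from Arabidopsis thaliana seedlings of the ecotype Wassilewskija (WS). Its members were all 9 arrays of 9 in the series, taken by sample title. They were 3 arrays at 50 kPa, where oxygen fell with total pressure, 3 arrays at 50 kPa/NormOx, where added oxygen held its partial pressure at 21 kPa under the same total pressure, and 3 arrays at the ambient 97 kPa. All seedlings were 5 d old and light grown on sterile 0.5x MS plates, and all were then moved to a chamber for 24 h with carbon dioxide at 0.05 kPa and nitrogen making up the rest of the gas where oxygen was set. Each array carried the roots of about 12 plants from 1 plate, and each of the 3 arrays of a group stood for a different one of 3 chambers. The 2 low pressure groups were given equal weight, so that a change is the mean log2 signal of the 50 kPa and 50 kPa/NormOx groups minus that of the 97 kPa group. The same 3 arrays at 97 kPa serve as the comparison for both low pressure groups.

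Low atmospheric pressure, or hypobaria, lowers the partial pressure of oxygen unless oxygen is added, and it speeds the diffusion of gases and water vapour out of plant tissue. Roots respond to a shortage of oxygen through ethylene response factors of group VII, which are stabilised when oxygen is low and switch on a small core set of genes in nearly all cell types. Roots also line the endodermis with suberin, a polyester of fatty acids, glycerol and phenolics that limits the passage of water, ions and gases. Lipid transfer proteins and enzymes of the GDSL esterase/lipase family act in the export and assembly of such polyesters at the cell wall.

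Values are MAS5 signals, a linear measure of brightness for each probe set that had been scaled to a common trimmed mean on each array. Median signal was 196 to 206 on the 6 low pressure arrays and 207 to 217 on the 3 arrays at 97 kPa, without overlap. For the GAPDH control the signal at the 3' end over that at the 5' end was 4.94 ± 0.429 (SD, n = 6) at low pressure and 5.72 ± 0.577 (n = 3) at 97 kPa, with overlap (4.39 to 5.57 and 5.38 to 6.39). For actin this ratio was high on every array, 64.1 ± 12.2 at low pressure and 62 ± 6.81 at 97 kPa. For ubiquitin it was 5.14 ± 0.691 and 5.01 ± 0.15. The part of these measures in the results was not tested. Over the 15818 probe sets tested, the correlation between arrays within a group was 0.944 to 0.965, and low pressure arrays correlated with those at 97 kPa at 0.935 to 0.960. Replicate 2 of 50 kPa/NormOx had a mean correlation of 0.957 with the 50 kPa arrays, against 0.945 for replicate 1 and 0.945 for replicate 3. With its own group it had 0.945, close to replicates 1 and 3 (0.946 and 0.947). The label of root tissue could be checked with few markers: 2 of 10 root markers were named on the array, with a summed signal of 16078 to 21838 at low pressure and 18596 to 19256 at 97 kPa. Of 10 shoot markers 4 were named and none was at 0. Their summed signal was 8611 to 14092 at 50 kPa, 4992 to 12481 at 50 kPa/NormOx and 6034 to 8403 at 97 kPa. Every 50 kPa array was thus above 97 kPa, while the 50 kPa/NormOx arrays overlapped with 97 kPa. The part of shoot signal in the results was not tested. In roots taken whole, fewer cells of a type and less RNA per cell cannot be told apart.

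Low pressure at both oxygen levels went with a small set of changes. Of the 15818 probe sets, 37 (0.234%) were called at an adjusted p under 0.05 in limma, 18 of them higher (0.114%) and 19 lower (0.12%) at low pressure. Of the 37, 18 named a single gene, 8 higher and 10 lower, and 19 had no listed gene. A call was taken as shared when all 6 low pressure arrays lay on one side of all 3 arrays at 97 kPa and the smaller of the 2 groups' log2 changes was at least 0.5 times the larger. Shared calls numbered 30 (0.19% of those tested), 12 higher (0.0759%) and 18 lower (0.114%), and 16 of them named a single gene, 6 higher and 10 lower. The rule is not a test at each oxygen level. With each group tested alone against 97 kPa in limma, 28 of the 37 passed at 50 kPa/NormOx and 7 at 50 kPa. Only 1, with no listed gene, passed at both. The share of all tested probe sets passing in each of these comparisons is not given here. The counts of 28 and 7 are therefore not read as particular to the 37. Of the 16 named shared genes only AT4G38410 passed at 50 kPa alone (adjusted p = 0.0261), the others having 0.0552 (AT1G67870) to 0.324 (AT2G14900). Arrays of low pressure and 97 kPa did not overlap for 5.53% of all probe sets tested, 3.74% with low pressure lower and 1.78% with low pressure higher. The median change of all probe sets was -0.0315 on the log2 scale. The calls rested on the variance model: without the dependence of the prior variance on signal, limma called 0 probe sets, the smallest adjusted p was 0.191, that of the 18 named genes was 0.191 to 0.278, and 1707 probe sets had an unadjusted p under 0.05, against 1868 with it. With the 6 low pressure arrays fitted as 1 group, 13 probe sets were called, all 13 of them among the 37. Of the named genes, those then not called were AT2G48130 (adjusted p = 0.0705), AT1G59740 (0.0774), AT1G78060 (0.0996), AT2G14900 and AT4G38410 (0.13 for both), PDF2.5 (0.19) and AT4G33560 (0.433).

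**Figure D1:**
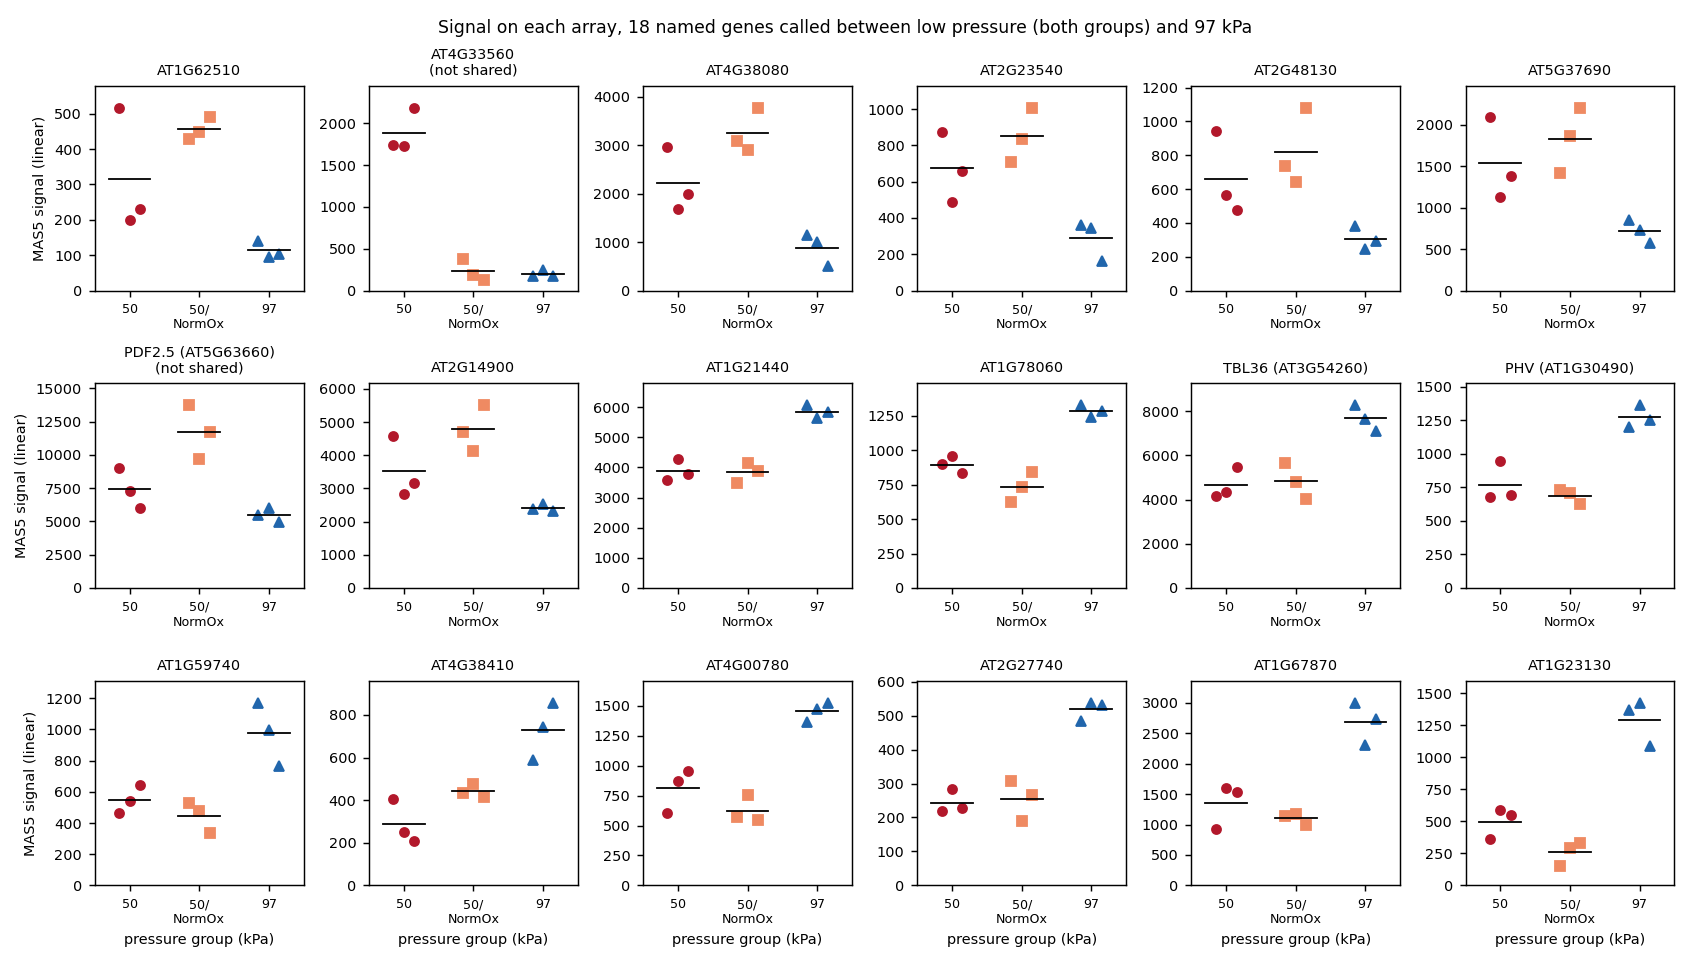
MAS5 signal (linear, y axis from 0) on each array for the 18 named genes that were called, in order of their change, with 3 arrays at 50 kPa (circles), 3 at 50 kPa/NormOx (squares) and 3 at 97 kPa (triangles) and the group mean as a line. In 17 of the 18 panels all low pressure arrays lie on one side of the arrays at 97 kPa, and AT4G33560 is the exception. For the 16 shared genes the rule for shared calls requires this.

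Of the 12 shared rises 6 had no listed gene, and the 6 named genes are given here one by one. For these and for the shared falls, the lack of overlap with 97 kPa is required by the rule for shared calls. AT4G38080, which encodes a hydroxyproline-rich glycoprotein family protein, a class of structural wall proteins, had a signal of 2964, 1683 and 1998 at 50 kPa and of 3086, 2906 and 3774 at 50 kPa/NormOx, against 1145, 1011 and 507 at 97 kPa. Every low pressure array was above every array at 97 kPa, and the 50 kPa/NormOx arrays were among the highest. The change was 1.66 ± 0.22 on the log2 scale (SE), or 3.15-fold (limma, adjusted p = 0.0106).

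AT1G62510, of the bifunctional inhibitor/lipid-transfer protein superfamily, had signals of 517, 201 and 231 at 50 kPa and of 428, 449 and 490 at 50 kPa/NormOx, against 141, 94.9 and 104 at 97 kPa. One array at 50 kPa was the highest of all 9 and the others of that group were the lowest at low pressure, still above 97 kPa. Its log2 change was 1.70 ± 0.26, or 3.25-fold (adjusted p = 0.0157). A second gene of this superfamily, AT2G48130, had signals of 941, 564 and 474 at 50 kPa and of 734, 642 and 1081 at 50 kPa/NormOx, against 380, 247 and 293 at 97 kPa. Here too the groups did not overlap, and the rise was 1.23 ± 0.22 on the log2 scale, or 2.35-fold (adjusted p = 0.0363).

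Both GDSL esterase/lipase genes among the calls rose. AT2G23540 had signals of 875, 489 and 659 at 50 kPa and of 707, 834 and 1008 at 50 kPa/NormOx, against 363, 346 and 163 at 97 kPa, a log2 rise of 1.44 ± 0.24 (2.71-fold, adjusted p = 0.0229). AT5G37690 was the brighter of the pair, with 2093, 1130 and 1383 at 50 kPa and 1423, 1866 and 2205 at 50 kPa/NormOx, against 845, 726 and 578 at 97 kPa, a log2 rise of 1.21 ± 0.19 (2.31-fold, adjusted p = 0.0157). In neither gene did the arrays of low pressure and 97 kPa overlap.

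The smallest shared rise of a named gene was that of AT2G14900. Its signal was 4593, 2844 and 3163 at 50 kPa and 4707, 4139 and 5513 at 50 kPa/NormOx, against 2395, 2532 and 2319 at 97 kPa. The groups were separate but close at the lower end, and the log2 rise was 0.75 ± 0.14 (1.68-fold, adjusted p = 0.0404).

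The 6 named shared rises were alike in which low pressure array of a group was highest. In 6 of 6 genes 50 kPa replicate 1 was the highest array at 50 kPa, and in 6 of 6 genes 50 kPa/NormOx replicate 3 was the highest array of its group. At 97 kPa, replicate 1 was the highest in 5 of the 6 genes and replicate 3 the lowest in 4. Among the 6 shared rises with no listed gene, 50 kPa replicate 1 was the highest at 50 kPa in 4 and replicate 2 in 2, and at 50 kPa/NormOx replicate 3 was the highest in 4 and replicate 2 in 2. Without 50 kPa replicate 1, 13 probe sets were called and 6 shared, and the adjusted p was 0.0556 for AT2G23540, AT2G48130 and AT2G14900. AT4G38080 kept its call without any one array. The other 5 rises lost theirs without replicate 2 at 97 kPa (adjusted p of 0.0589 to 0.204) and without replicate 3 at 97 kPa (0.106 to 0.156). AT2G48130 and AT2G14900 also lost theirs without replicate 1 at 97 kPa (adjusted p = 0.0586 and 0.176). AT2G14900 had an adjusted p of 0.0599 without 50 kPa/NormOx replicate 1 and of 0.0687 without 50 kPa/NormOx replicate 3.

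The largest shared fall, and the smallest adjusted p of the comparison, was that of AT1G23130, which encodes a protein of the polyketide cyclase/dehydrase and lipid transport superfamily. Its signal was 359, 588 and 547 at 50 kPa and 154, 294 and 333 at 50 kPa/NormOx, against 1371, 1428 and 1085 at 97 kPa. All 6 low pressure arrays were far below those at 97 kPa, with those of 50 kPa/NormOx lowest. The log2 change was -1.89 ± 0.23, or 0.27-fold (adjusted p = 0.00775), and the call held without any one array.

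AT1G67870, a glycine-rich protein gene, had signals of 930, 1598 and 1526 at 50 kPa and of 1143, 1172 and 990 at 50 kPa/NormOx, against 3002, 2298 and 2731 at 97 kPa. The 50 kPa/NormOx arrays lay within the range of the 50 kPa arrays, all below 97 kPa, and the log2 change was -1.15 ± 0.16 (adjusted p = 0.0106). AT4G00780, a TRAF-like family gene, had signals of 608, 872 and 954 at 50 kPa and of 568, 758 and 544 at 50 kPa/NormOx, against 1366, 1472 and 1526 at 97 kPa, and its log2 change was -1.05 ± 0.16 (adjusted p = 0.0157). AT2G27740 had signals of 218, 285 and 227 at 50 kPa and of 306, 189 and 266 at 50 kPa/NormOx, against 483, 538 and 532 at 97 kPa, with a log2 change of -1.08 ± 0.18 (adjusted p = 0.0229). In each of these genes the arrays of low pressure and 97 kPa were separate.

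AT4G38410 encodes a dehydrin, a class of hydrophilic proteins that accumulate when cells lose water. It was lower at low pressure, with signals of 406, 252 and 210 at 50 kPa and of 432, 477 and 417 at 50 kPa/NormOx, against 590, 744 and 858 at 97 kPa. It was the 1 named fall whose 50 kPa arrays all lay below the 50 kPa/NormOx arrays. The log2 change was -1.04 ± 0.20 (adjusted p = 0.0404), and it was the call most often lost, with an adjusted p of 0.0509 after quantile normalization, 0.0618 without the filter on dim probe sets, 0.13 with the 6 low pressure arrays as 1 group and 0.233 without the intensity trend.

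AT1G59740 encodes NPF4.3, of the NRT1/PTR family of transporters. Its signal was 463, 544 and 644 at 50 kPa and 526, 475 and 336 at 50 kPa/NormOx, against 1172, 999 and 768 at 97 kPa, a log2 change of -0.98 ± 0.18 (adjusted p = 0.0392). PHV (PHAVOLUTA), a class III homeodomain-leucine zipper transcription factor known for its part in vascular and organ patterning, had signals of 676, 944 and 691 at 50 kPa and of 726, 711 and 625 at 50 kPa/NormOx, against 1198, 1362 and 1255 at 97 kPa. Its arrays were separate and the log2 change was -0.81 ± 0.14 (adjusted p = 0.0229).

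The remaining shared falls of named genes were smaller. TBL36, of the TRICHOME BIREFRINGENCE-LIKE family, which is known for the acetylation of wall polysaccharides, had signals of 4158, 4352 and 5475 at 50 kPa and of 5673, 4801 and 4006 at 50 kPa/NormOx, against 8270, 7656 and 7113 at 97 kPa. AT1G21440 had 3570, 4275 and 3792 at 50 kPa and 3476, 4155 and 3877 at 50 kPa/NormOx, against 6070, 5631 and 5837 at 97 kPa. AT1G78060 had 898, 954 and 831 at 50 kPa and 625, 732 and 839 at 50 kPa/NormOx, against 1326, 1237 and 1284 at 97 kPa. Low pressure and 97 kPa did not overlap in any of them, and the log2 changes were -0.70 ± 0.12 for TBL36 (adjusted p = 0.0316), -0.60 ± 0.10 for AT1G21440 (adjusted p = 0.0229) and -0.67 ± 0.13 for AT1G78060 (adjusted p = 0.0404).

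Of the 10 named falls AT1G23130 alone kept its call without any one array. The other 9 lost theirs without replicate 3 at 97 kPa, when 4 probe sets were called in all (adjusted p of 0.0795 to 0.186), and without replicate 1 at 97 kPa, when 12 were (0.0533 to 0.205). Without replicate 2 at 97 kPa, when 7 were called, 8 of the 9 lost theirs (0.0916 to 0.204), AT1G67870 being the exception. Without 50 kPa replicate 1 the adjusted p was 0.0556 for AT1G21440, PHV and AT2G27740, 0.0699 for TBL36, and 0.0905 for AT1G59740 and AT1G78060. AT4G38410 and AT1G59740 lost their calls without 50 kPa replicate 2 (0.0652 and 0.0529), AT1G78060 without 50 kPa replicate 3 (0.0565), AT1G78060 and AT4G38410 without 50 kPa/NormOx replicate 1 (0.0599 and 0.0606), and AT4G38410 without 50 kPa/NormOx replicate 3 (0.0646).

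The size of the shared changes was next compared between the low pressure groups. Of the 30 shared probe sets 24 changed more at 50 kPa/NormOx and 6 more at 50 kPa. The share of all tested probe sets that changed more at 50 kPa/NormOx is not given here. Over all tested probe sets, the mean correlation of each array with 97 kPa was 0.9421 to 0.9461 at 50 kPa/NormOx and 0.9495 to 0.9534 at 50 kPa. The split of 24 and 6 is therefore not read as particular to the shared calls. Both groups were set against the same 3 arrays at 97 kPa, so their sizes were compared through the difference between them, in which those arrays cancel. The rule for shared calls itself leaves out probe sets whose changes differ strongly between the groups, so few passing differences were to be found among the 30. The difference did not pass for any of the 30 (0 at an adjusted p under 0.05 in limma, against 0.0822% of all probe sets tested, and 10 at an unadjusted p under 0.05, against 9.06%). AT1G23130 had a log2 change of -1.40 at 50 kPa and -2.38 at 50 kPa/NormOx, a difference of 0.98 (95% interval 0.42 to 1.54, adjusted p = 0.32). AT4G38080 had 1.36 at 50 kPa and 1.95 at 50 kPa/NormOx (difference -0.59, -1.14 to -0.04), and AT1G62510 had 1.37 at 50 kPa and 2.03 at 50 kPa/NormOx (difference -0.66, -1.30 to -0.02). For the GDSL esterase/lipase genes the intervals spanned 0, from -0.96 to 0.24 for AT2G23540 and from -0.75 to 0.19 for AT5G37690. The changes were closest in AT1G21440 (-0.60 and -0.61, interval of the difference -0.23 to 0.26), AT2G27740 (-1.10 and -1.06, -0.49 to 0.40) and TBL36 (-0.73 and -0.68, -0.35 to 0.26).

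**Figure D2:**
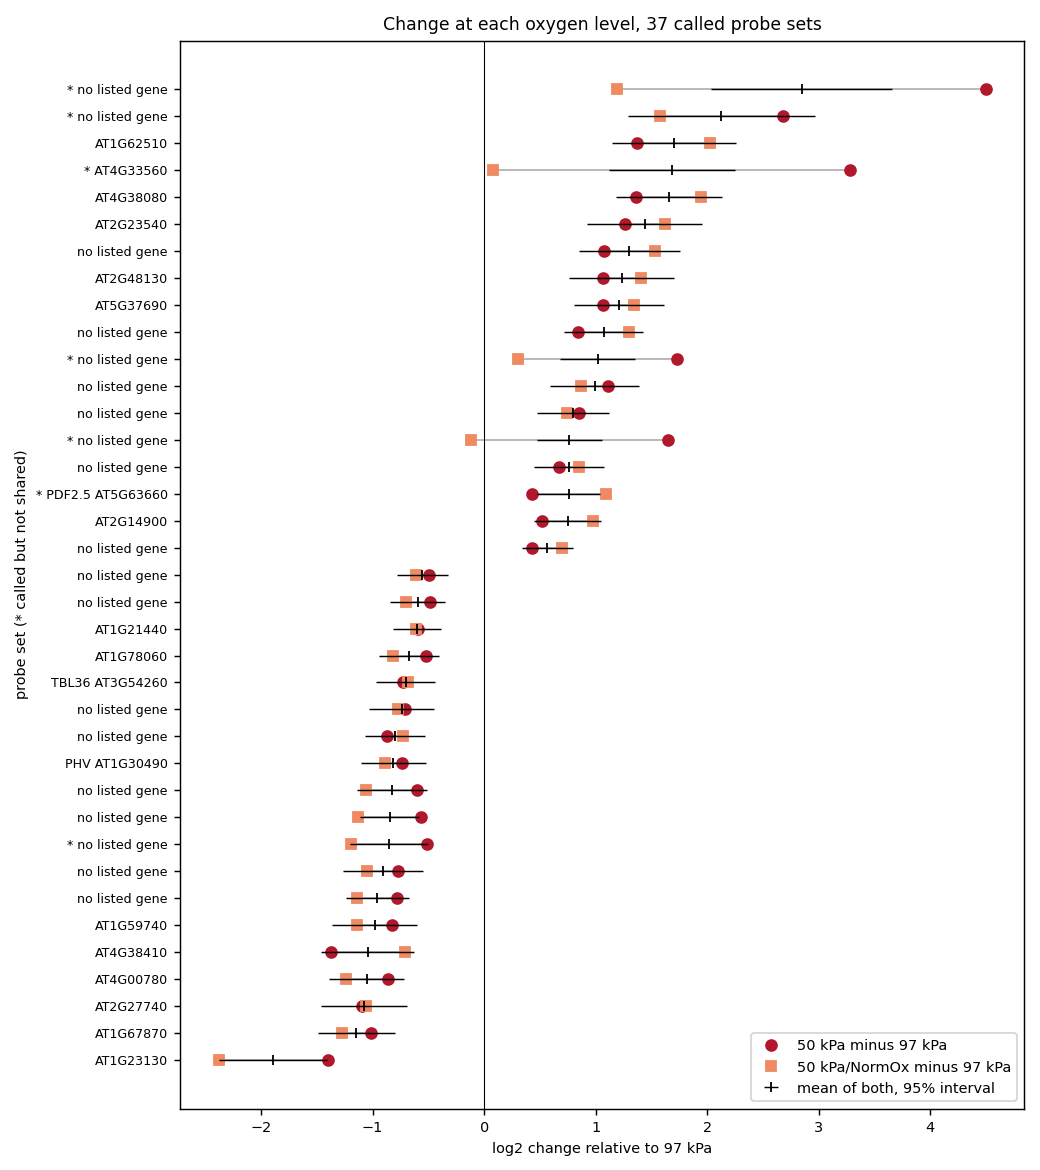
Log2 change relative to 97 kPa (x axis) of the 37 called probe sets, at 50 kPa (circles) and at 50 kPa/NormOx (squares), with the mean of both and its 95% interval in black and an asterisk where a call was not shared. The rule for shared calls places both symbols of the 30 shared probe sets on the same side of 0. AT4G33560, which was not shared, has 3.28 at 50 kPa and 0.08 at 50 kPa/NormOx.

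A mean over the low pressure groups can also pass through 1 group alone. Of the 37 calls 7 were not shared, 6 of them higher and 1 lower, and not all for that reason. A probe set with no listed gene rose by 2.68 at 50 kPa and 1.58 at 50 kPa/NormOx on the log2 scale. It failed the rule because its lowest low pressure array (149) was below the highest at 97 kPa (158). AT4G33560, a wound-responsive family gene of the core hypoxia set, was called (log2 change 1.68, adjusted p = 0.0157) with signals of 1745, 1726 and 2186 at 50 kPa and of 378, 185 and 122 at 50 kPa/NormOx, against 170, 246 and 171 at 97 kPa. Only the 50 kPa arrays were high, and those of 50 kPa/NormOx overlapped with 97 kPa. The difference between the low pressure groups was 3.20 (2.54 to 3.85, adjusted p = 0.000136). PDF2.5, a plant defensin gene, went the other way, with 9040, 7295 and 6014 at 50 kPa and 13745, 9729 and 11702 at 50 kPa/NormOx, against 5459, 5990 and 4966 at 97 kPa. Its arrays did not overlap with 97 kPa and its log2 change was 0.76 ± 0.13 (adjusted p = 0.0318), but the change of 0.43 at 50 kPa was 0.394 times that of 1.09 at 50 kPa/NormOx. Both genes lost their call without 50 kPa replicate 1 (adjusted p = 0.0502 for AT4G33560 and 0.0556 for PDF2.5) and without any one array at 97 kPa (0.0551 to 0.139). The shared probe set nearest the limit of the rule had no listed gene and stood at 0.505 times, and the nearest named genes were AT4G38410, at 0.517 times, and AT2G14900, at 0.53 times.

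Probe sets with no listed gene made up 14 of the 30 shared calls, 6 of them higher and 8 lower. Over all 19 called probe sets of this kind, the 10 rises ran from 0.567 to 2.85 on the log2 scale with a median of 1, and the 9 falls from -0.958 to -0.555 with a median of -0.827. They are given as counts only.

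Genes of suberin synthesis and export stood at the upper end of the gene lists. Of 26 genes on that list 5 were named on the array and tested, 3 rose (AT5G37690, AT2G23540 and AT2G48130, given above), where 0.114% of all probe sets did, and the median change was 1.21, against -0.0315 for all probe sets. The median was 1.06 at 50 kPa and 1.35 at 50 kPa/NormOx. The list was drawn up with earlier results of these data known, so its count is not independent evidence of its direction. AT5G12420, of the WSD1-like O-acyltransferase family, had signals of 286, 201 and 279 at 50 kPa and of 247, 332 and 476 at 50 kPa/NormOx, against 220, 154 and 101 at 97 kPa. One array at 50 kPa was below the highest at 97 kPa, and its log2 change of 0.96 ± 0.26 did not pass (adjusted p = 0.156). AT1G74460 had 935, 423 and 649 at 50 kPa and 815, 728 and 912 at 50 kPa/NormOx, against 431, 454 and 440 at 97 kPa, also with 1 array at 50 kPa in the range of 97 kPa (0.70 ± 0.19, adjusted p = 0.159).

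CC-type glutaredoxins, small plant-specific redox proteins of which several respond to nitrogen supply, lay at the lower end. Of 15 tested members 0 were called by limma, 13 were below 0 and 6 were lower at an unadjusted p under 0.05, where 6.75% of all probe sets were, and the median change was -0.643. The median was -0.585 at 50 kPa and -0.721 at 50 kPa/NormOx. GRXS2 (AT5G18600) had signals of 235, 508 and 429 at 50 kPa and of 177, 344 and 296 at 50 kPa/NormOx, against 622, 603 and 816 at 97 kPa. GRXS11 (AT1G06830) had 1004, 1899 and 1837 at 50 kPa and 1057, 1262 and 771 at 50 kPa/NormOx, against 2263, 2118 and 2239 at 97 kPa. AT3G62930 had 292, 340 and 343 at 50 kPa and 232, 358 and 278 at 50 kPa/NormOx, against 516, 521 and 398 at 97 kPa. In all 3 genes every low pressure array was below 97 kPa, and none passed: the log2 changes were -1.11 ± 0.25 for GRXS2 (adjusted p = 0.0729), -0.83 ± 0.19 for GRXS11 (adjusted p = 0.083) and -0.64 ± 0.17 for AT3G62930 (adjusted p = 0.156). AT3G62960 was also lower (-1.035 ± 0.376, adjusted p = 0.291), but its highest low pressure array, at 144, was above the lowest at 97 kPa, at 122. Of the 15 members 4 were lower without overlap, where 3.74% of all probe sets were. The members AT4G15680, AT4G15690 and AT4G15700 are near-identical copies whose probe sets may share signal.

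**Figure D3:**
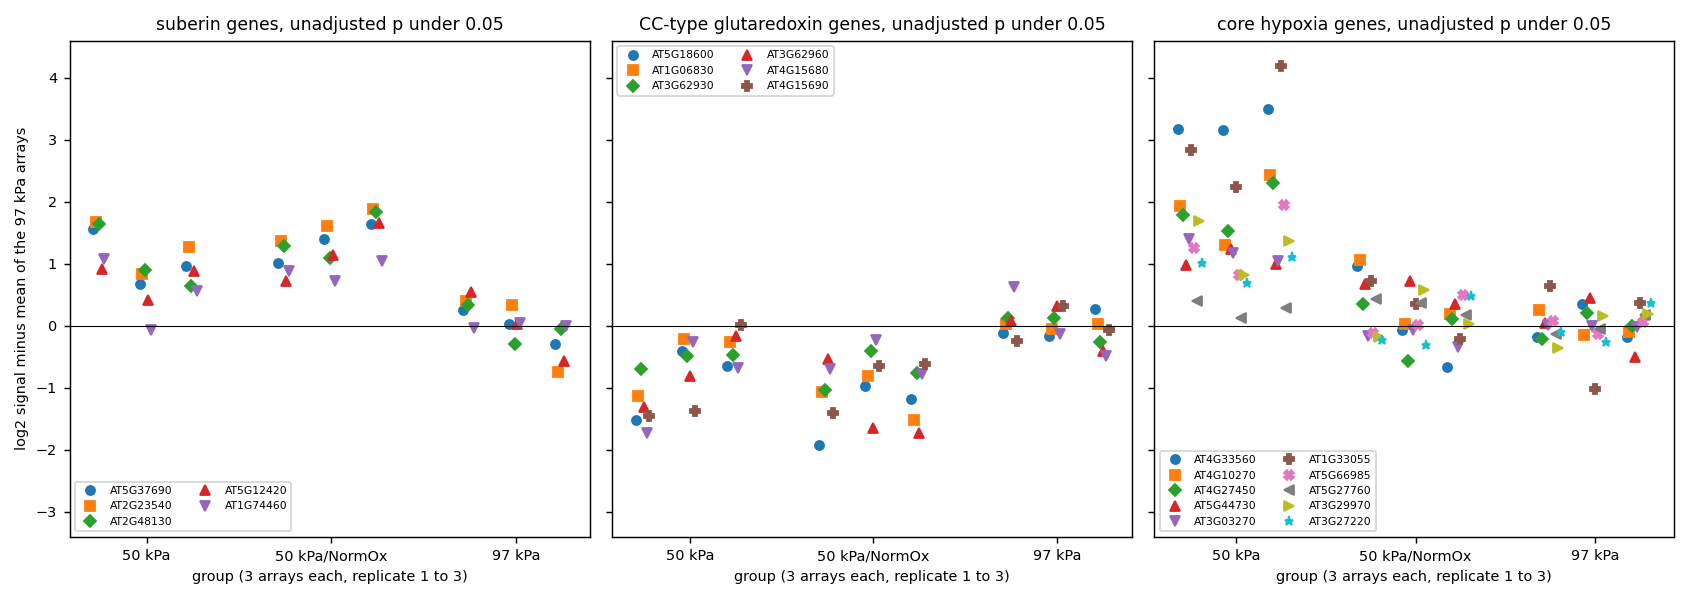
Log2 signal on each array minus the mean of the 97 kPa arrays (y axis) for members of the suberin, CC-type glutaredoxin and core hypoxia lists with an unadjusted p under 0.05, with the 3 arrays of each group side by side. The 5 suberin genes lie above 0 on all but 1 low pressure array of AT1G74460 and the 6 glutaredoxin genes lie mostly below 0 in both low pressure groups, whereas most of the 10 hypoxia genes stand out at 50 kPa alone.

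The core hypoxia list was higher mainly in the group with low oxygen. Of 23 tested members 1 was called (AT4G33560) and 10 were higher at an unadjusted p under 0.05, where 5.06% of all probe sets were. The median change was 0.457 for the mean of both groups. Taken separately, the median was 0.711 at 50 kPa and -0.0305 at 50 kPa/NormOx. AT4G27450, annotated as an aluminium induced protein, had signals of 1525, 1276 and 2175 at 50 kPa, against 562, 295 and 477 at 50 kPa/NormOx and 379, 510 and 440 at 97 kPa, and the low pressure groups differed by 1.91 (1.41 to 2.42, adjusted p = 0.0023). AT5G27760, which was above 0 in both low pressure groups without passing, had 6331, 5243 and 5860 at 50 kPa and 6498, 6224 and 5440 at 50 kPa/NormOx, against 4420, 4659 and 5438 at 97 kPa, with a log2 change of 0.27 at 50 kPa and 0.32 at 50 kPa/NormOx (adjusted p = 0.285 for the mean of both). AT5G44730, of the haloacid dehalogenase-like hydrolase superfamily, had 601, 713 and 609 at 50 kPa and 484, 503 and 389 at 50 kPa/NormOx, against 314, 414 and 215 at 97 kPa, with log2 changes of 1.07 at 50 kPa and 0.59 at 50 kPa/NormOx (adjusted p = 0.0812 for the mean). Its 50 kPa arrays all lay above those of 50 kPa/NormOx (difference 0.49, 0.02 to 0.95, unadjusted p = 0.0404), and its lowest low pressure array lay below the highest at 97 kPa.

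Among wall-loosening expansins, 15 were tested, 0 were called by limma, 9 were below 0 and 5 were lower at an unadjusted p under 0.05, where 6.75% of all probe sets were, and the median was -0.0882. EXPA15 had signals of 1120, 1207 and 1357 at 50 kPa and of 1348, 1196 and 1052 at 50 kPa/NormOx, against 2265, 1797 and 1587 at 97 kPa. The groups did not overlap, and the log2 change of -0.62 ± 0.14 was -0.61 at 50 kPa and -0.64 at 50 kPa/NormOx (adjusted p = 0.0721, not past the threshold). EXPA8 had 191, 254 and 169 at 50 kPa and 311, 218 and 188 at 50 kPa/NormOx, against 297, 475 and 543 at 97 kPa, with overlap (-0.97 ± 0.23, adjusted p = 0.0943). Of 7 tested xyloglucan endotransglucosylase/hydrolase (XTH) genes 0 were called and the median was 0.047. XTH16 was the 1 member whose arrays did not overlap, at 522, 387 and 519 at 50 kPa and 599, 443 and 531 at 50 kPa/NormOx, against 228, 380 and 347 at 97 kPa (0.67 ± 0.19, adjusted p = 0.159).

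No other list had more than 1 call. Genes of abscisic acid and dehydration had a median of -0.196 over 5 tested, with the dehydrin gene AT4G38410 as the 1 call. All 3 tested genes of aliphatic glucosinolate synthesis were below 0 (median -0.452), none called. BCAT4, which starts the elongation of methionine, had 8098, 10756 and 14319 at 50 kPa and 8595, 8007 and 8226 at 50 kPa/NormOx, against 13186, 14222 and 11851 at 97 kPa, and overlapped at 50 kPa (-0.47 ± 0.14, adjusted p = 0.188). SWEET11, a sugar transporter of the phloem, had 893, 1877 and 1738 at 50 kPa and 269, 818 and 886 at 50 kPa/NormOx, against 2316, 1560 and 1675 at 97 kPa, with overlap at 50 kPa (0.499-fold, adjusted p = 0.223). The 8 tested nuclear photosynthesis genes had a median of 0.0324, with 0.314 at 50 kPa and -0.257 at 50 kPa/NormOx, and 69 plastid-encoded probe sets, which were left out of the fit, had medians of 0.158 at 50 kPa and -0.445 at 50 kPa/NormOx. STOMAGEN and PORB, from the shoot marker list, had log2 changes of 1.02 and 0.59 (adjusted p = 0.176 and 0.322). The WRKY, auxin response and phloem lists had medians of 0.131, -0.0207 and -0.0795 with 0 calls over 5, 7 and 5 tested genes. The 10 other lists, with 1 to 3 tested members each, had 0 calls and medians from -0.446 (heat shock) to 0.451 (iron homeostasis). Members of the phosphate starvation, aquaporin, jasmonate, xylem and cytosolic ribosomal protein lists were not analysed here by name.

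**Figure D4:**
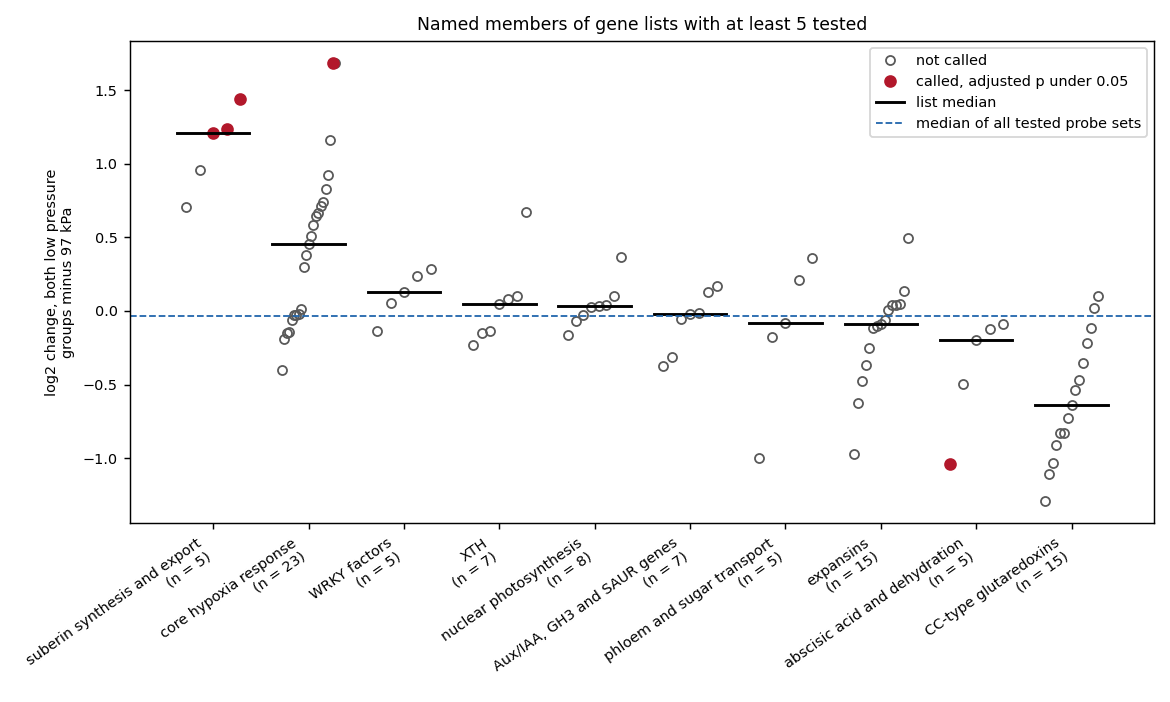
Log2 change of both low pressure groups minus 97 kPa (y axis) for each tested member of the gene lists with at least 5 tested members (x axis, n = members tested), with called members filled, list medians as black lines and the median of all probe sets dashed. The suberin list has the highest median, 1.21, and the CC-type glutaredoxin list the lowest, -0.643, among the lists drawn.

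At the threshold of the study's methods, an unadjusted p under 0.01 and a change of at least 2-fold, 83 probe sets (0.525%) were past it, 59 higher (0.373%) and 24 lower (0.152%), and 44 of these (0.278% of those tested) had no overlap between low pressure and 97 kPa. Among them were 15 named genes that were not called, 10 with higher and 5 with lower signal at low pressure, and the following were picked after their values had been seen. AT2G22510, a second gene annotated as a hydroxyproline-rich glycoprotein, had signals of 739, 293 and 346 at 50 kPa and of 623, 574 and 740 at 50 kPa/NormOx, against 277, 240 and 102 at 97 kPa (log2 change 1.46 ± 0.31, adjusted p = 0.0626). PER39 (AT4G11290), a peroxidase, had 877, 425 and 373 at 50 kPa and 665, 481 and 1063 at 50 kPa/NormOx, against 254, 268 and 255 at 97 kPa (1.22 ± 0.26, adjusted p = 0.0697). In both genes 50 kPa replicate 1 was the highest of its group. Among the 10 rises this replicate was not the highest in AT5G51490, AT4G22830, AT5G64480 and AT1G56660. AT5G04120, annotated as the phosphoserine phosphatase IPSP, had 232, 81.5 and 75.9 at 50 kPa and 221, 279 and 311 at 50 kPa/NormOx, against 42.9, 69.0 and 44.1 at 97 kPa (1.78 ± 0.36, adjusted p = 0.0595). Its mean at 97 kPa was below 66.7, the signal under which probe sets were left out, so that the size of the change is uncertain. On the lower side AT3G27400 had 308, 540 and 486 at 50 kPa and 485, 274 and 156 at 50 kPa/NormOx, against 922, 834 and 808 at 97 kPa (-1.31 ± 0.27, adjusted p = 0.0595), and AT2G38970 had 306, 491 and 307 at 50 kPa and 319, 188 and 184 at 50 kPa/NormOx, against 572, 581 and 579 at 97 kPa (-1.03 ± 0.21, adjusted p = 0.055).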

How the data were processed

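Roots of 9 samples were measured on Affymetrix ATH1 arrays. The authors made the deposited intensity values with MAS5 in Affymetrix Expression Console (versions not given in the sources used here). They are linear signals scaled to a trimmed mean of 500.1 on every array, which hides changes in total mRNA, and carry no detection calls. The number of arrays limits precision. Of 22810 probe sets, 64 controls and 148 of organelle genes were left out, then the 30% with the lowest mean log2 signal (below 66.7), which left 15818. Names came from the platform annotation: 13513 probe sets named 1 gene (13436 matched in the TAIR10.1 table), 503 several and 8730 none. No build is named for the array, so no coordinates are given.

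Log2 signals of the 3 groups were fitted in limma 3.58.1 (R 4.3.3) with an intensity trend. The contrast was the mean of both low pressure groups minus 97 kPa, two-sided, with Benjamini-Hochberg adjustment over all probe sets. P-values measure the spread between chambers. The fit was tested on simulated data. Named genes were the called genes whose arrays did not overlap (up to 15 in each direction), called genes that were not shared and up to 4 per list by smallest p, each by its brightest probe set; those with an unadjusted p over 0.05 are covered by the counts. Other genes are said to be picked by value. The comparison, members and lists were chosen with earlier results of these data known. No promoter search was run. Replicate numbers came from the titles; 1 array at 50 kPa has another number in its description. They did not pair the samples. Alternatives covered the filter, scaling, offset, variance model, weights, grouping, block, organelle genes, threshold and each array left out.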

Additional observations from a re-analysis of the deposited data

Results flagged for a closer look

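The change at low pressure differed between the oxygen levels for some genes. The log2 difference of 50 kPa minus 50 kPa/NormOx was 3.20 for AT4G33560 (adjusted p = 0.000136) and 1.91 for AT4G27450 (adjusted p = 0.0023), and it was 3.31, 1.42 and 1.77 for the 3 called probe sets with no listed gene whose difference also passed in limma, the first of which had a log2 change of 1.19 at 50 kPa/NormOx, not past the threshold (adjusted p = 0.264). The control transcripts added at hybridization, which no comparison used, had a mean signal of 18400 ± 3390 (SD, n = 3) at 50 kPa/NormOx and 14900 ± 514 at 97 kPa, with every 50 kPa/NormOx array above 97 kPa, while the 50 kPa arrays (13000 to 17100) overlapped with 97 kPa. Their part in the results was not tested.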

How the results depend on the processing

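The number of calls depended on the processing. Directions did not turn over the alternatives run for any of the 55 named genes with an unadjusted p under 0.05. Those genes were kept for that p in the same data, so few turns were to be found. Of 1035 values, 901 kept direction and side of the threshold, 93 lost the call and 41 gained it. The 93 all fell on the 18 named calls, as other genes had no call to lose. Each of the 18 lost its call in 1 (AT4G38080 and AT1G23130) to 10 (AT4G38410) of 19 alternatives. Against 37 called and 30 shared probe sets, the counts were 60 and 46 with the dimmest 50% left out, 63 and 48 with log2 of signal plus 32, 139 and 99 with array weights and 83 and 42 at the methods' threshold. They were 13 and 13 with the 6 low pressure arrays as 1 group and 0 and 0 without the intensity trend. With 31 to 46 calls, no filter, quantile normalization, robust variances and kept organelle genes stayed within 1.5 times. Leaving out 1 array gave 4 to 69 calls and 3 to 52 shared calls. The fewest were 12, 7 and 4 without replicates 1, 2 and 3 at 97 kPa and 13 without 50 kPa replicate 1, and the most were 69 without 50 kPa/NormOx replicate 2, when all 37 remained called, and 60 without 50 kPa replicate 3. Called probe sets that differed between the low pressure groups numbered 4, and 1 to 12 with 1 array left out. Without the trend this count could only be 0, as 0 probe sets were called. All 190 list medians run moved by less than the spread between replicates. Replicate numbers did not pair the arrays (correlations of deviations -0.0512 to 0.115, 1 of 9 over 0.1). A replicate block gave 58 calls and 40 shared calls, and of the named calls that of AT1G78060 was lost (adjusted p = 0.0512), while AT4G10270 (0.0211), AT5G18600 (0.0245), AT2G22510 (0.0345) and AT5G44730 (0.0479) gained one.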
